A study of Macaca fascicularis with 23 samples.

Results

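NQO1 and AKR1B10 are liver reductases that use NADPH, and each was measured by 1 probe set of the array, 38066_at for NQO1 and 37482_at for AKR1B10. They are 2 of the 8229 genes that a probe set names alone, and no other of the 12625 probe sets names either. The genes were picked because of their intensities over the dose and day groups of these same animals. Their levels and differences between groups are therefore given as a description, without a test. The study dosed cynomolgus monkeys (Macaca fascicularis) with ciprofibrate, a fibrate that activates the nuclear receptor PPAR-alpha, and measured RNA from the right lateral liver lobe, with 1 array per animal and 23 animals. At 15 days there were 3 animals given vehicle only and 4 at each of 3, 30, 150 and 400 mg/kg/day. At 4 days there were 2 animals at 400 mg/kg/day and 2 given vehicle only. The labels used here give neither age nor sex, and they do not name the vehicle.

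NQO1, NAD(P)H quinone dehydrogenase 1, reduces quinones directly to hydroquinones and so bypasses the reactive semiquinone. AKR1B10, an aldo-keto reductase, reduces aldehydes such as retinal and products of lipid peroxidation. In human cells both genes are targets of the transcription factor NRF2 (gene NFE2L2), which KEAP1 holds in check until oxidants or electrophiles modify it. NQO1 is also known as a target of the aryl hydrocarbon receptor AHR. AKR1B10 is known for a low level in normal human liver and a high level in many hepatocellular carcinomas.

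The array was designed against human transcripts, and how well its probes match the monkey RNA was not checked. AKR1B10 belongs to a family of closely related genes in humans, among them AKR1B1 and AKR1B15. Neither had a probe set of its own here, so signal from such relatives in the AKR1B10 probe set cannot be told apart. Values are MAS5 intensities computed by the authors, with no scaling settings stated. Array means, trimmed by 2% per tail, lay between 150.065 and 150.08. Differences are on a log2 scale after a pseudocount of 16, which understates the differences of low values. The standard errors (SE) come from 1 model fitted to all arrays and all 7535 probe sets above a filter on low intensity, which lay at an intensity of 39.7.

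NQO1 was above the filter in every animal, lower up to 30 mg/kg/day and higher at the upper doses. At 15 days its intensities were 293.5, 196.7 and 156.2 in vehicle animals, and 204.6, 228.1, 247.4 and 425.8 at 3 mg/kg/day. They were 263.5, 304.7, 283.1 and 421.5 at 30 mg/kg/day, 751.3, 650.7, 832.6 and 763.7 at 150 mg/kg/day, and 1820, 1208, 1077 and 924.3 at 400 mg/kg/day. The vehicle, 3 and 30 mg/kg/day animals thus overlapped, the animals at 150 lay above all of these, and those at 400 lay above all at 150. Group means were 215.5 ± 70.5 (SD, n = 3) in vehicle, 276.5 ± 101 at 3, 318.2 ± 70.9 at 30, 749.6 ± 75.0 at 150 and 1257 ± 393 at 400 mg/kg/day (SD, n = 4 each). The SD was 31.2% of the mean at 400 mg/kg/day and 10.0% at 150 mg/kg/day, the smallest share of the 7 groups.

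AKR1B10 was near the low end of what the array resolved in vehicle animals and at 30 mg/kg/day, and was high at 400 mg/kg/day. At 15 days its intensities were 22.4, 41.3 and 36.5 in vehicle animals, 77.3, 75.9, 67.8 and 47.1 at 3 mg/kg/day, and 37.5, 12.3, 63.3 and 36.8 at 30 mg/kg/day. They were 103, 190.5, 255.2 and 156.3 at 150 mg/kg/day, and 902.6, 407.2, 405.4 and 739 at 400 mg/kg/day. All animals at 150 lay above all of the lower groups, and all at 400 lay above all at 150. The means were 33.4 ± 9.82 (SD, n = 3) in vehicle, 67.03 ± 13.9 at 3, 37.5 ± 20.8 at 30, 176.3 ± 63.8 at 150 and 613.6 ± 248 at 400 mg/kg/day (SD, n = 4 each). Only 1 of 3 vehicle animals and 1 of 4 at 30 mg/kg/day exceeded 39.7, the intensity of the filter, so sizes measured against vehicle are not exact for this gene.

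**Figure D1:**
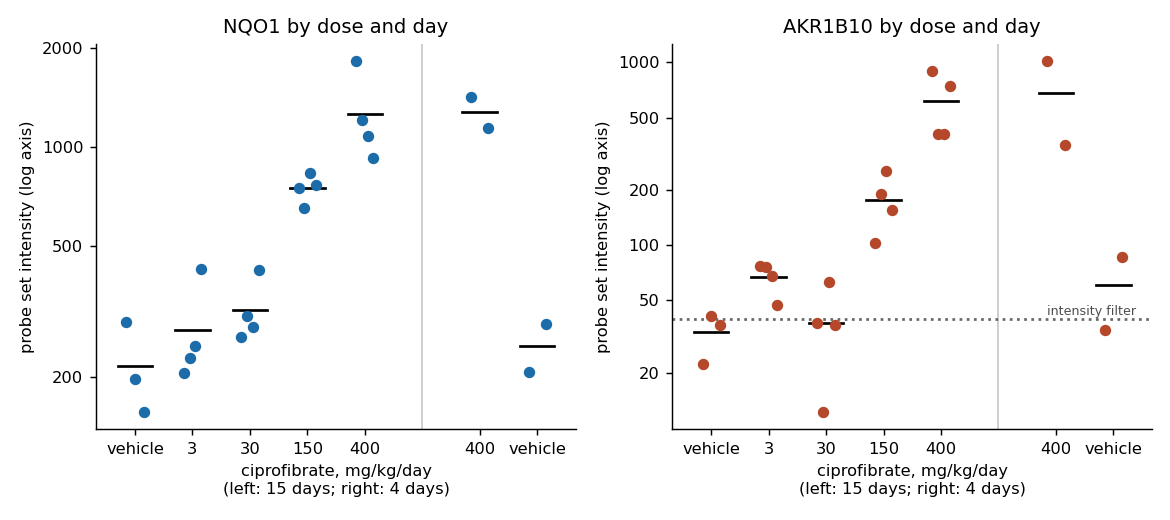
Probe set intensity of NQO1 (left) and AKR1B10 (right) in each animal, on log axes, with ciprofibrate doses at 15 days from vehicle to 400 mg/kg/day and then the 4-day animals at 400 mg/kg/day and on vehicle. Points are animals, bars are group means, and the dotted line is the intensity filter of 39.7. Both genes stepped up at 150 and again at 400 mg/kg/day. Only AKR1B10 had every 3 mg/kg/day animal above every 15-day vehicle animal, but 1 vehicle animal at 4 days lay higher, at 86.6.

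At 400 mg/kg/day over 15 days NQO1 was 2.46 ± 0.25 (SE) higher than vehicle on the log2 scale and AKR1B10 was 3.61 ± 0.40 higher. At 150 mg/kg/day the differences from the same vehicle animals were 1.76 ± 0.25 for NQO1 and 1.92 ± 0.40 for AKR1B10. Neither gene had treated and vehicle animals overlapping at these doses. The lowest NQO1 intensity at 400 mg/kg/day was 3.15 times the highest in vehicle, and the lowest AKR1B10 intensity was 9.82 times the highest in vehicle. Of all probe sets tested, 6.72% had every animal at 400 mg/kg/day above every vehicle animal, and 5.16% had this at 150 mg/kg/day. Because the genes were chosen on these values, nothing is read from that comparison.

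For NQO1 the mean at 150 mg/kg/day already had 51.3% of the increase in mean intensity that 400 mg/kg/day showed over vehicle, and for AKR1B10 it had 24.6%. The log2 difference of 150 minus 30 mg/kg/day was 1.21 ± 0.23 for NQO1 and 1.88 ± 0.37 for AKR1B10. That of 400 minus 150 mg/kg/day was 0.69 ± 0.23 for NQO1 and 1.69 ± 0.37 for AKR1B10. No test of these steps between the genes was made.

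At 30 mg/kg/day NQO1 stood 0.55 ± 0.25 above vehicle and AKR1B10 0.04 ± 0.40. For NQO1 2 of 4 animals at this dose exceeded all vehicle animals, and for AKR1B10 this held for 1 of 4. At 3 mg/kg/day the differences were 0.32 ± 0.25 for NQO1, with 1 of 4 animals above all vehicle animals, and 0.75 ± 0.40 for AKR1B10, with 4 of 4. The lowest AKR1B10 intensity at 3 mg/kg/day was 1.14 times the highest in vehicle. Among all probe sets, 4.05% had every 3 mg/kg/day animal above every vehicle animal and 4.03% had this at 30 mg/kg/day. Single animals moved these values: NQO1 at 3 mg/kg/day stood at 0.11 without treated replicate 4, 0.13 without vehicle replicate 3 and 0.56 without vehicle replicate 1. At 30 mg/kg/day NQO1 stood at 0.36 without vehicle replicate 3, and AKR1B10 ran from -0.18 to 0.32 with 1 animal left out. AKR1B10 was lower at 30 than at 3 mg/kg/day by a mean log2 difference of -0.71 ± 0.37, with overlapping animals.

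**Figure D2:**
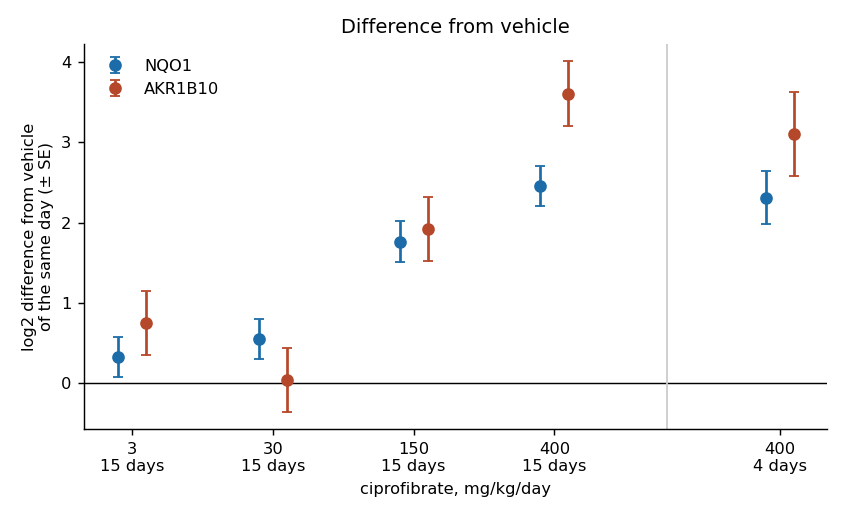
Log2 difference of NQO1 and AKR1B10 from vehicle animals of the same day, with the dose of ciprofibrate on the horizontal axis and error bars of 1 SE from the model fitted to all arrays. The 15-day doses share the same 3 vehicle animals. AKR1B10 stood at 3.61 against 2.46 for NQO1 at 400 mg/kg/day, and at 1.92 against 1.76 at 150 mg/kg/day.

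At 400 mg/kg/day the 4-day animals averaged 1279 ± 197 for NQO1 and 683 ± 465 for AKR1B10 (SD, n = 2), close to the 15-day means above. NQO1 had intensities of 1418 and 1140 in the treated animals, against 206.3 and 288.3 in vehicle animals. AKR1B10 had 1012 and 353.9 in the treated animals, against 34.3 and 86.6 in vehicle animals. Treated and vehicle animals did not overlap for either gene, which held in this direction for 18.4% of all probe sets with 2 animals a group. The differences from vehicle were 2.31 ± 0.33 for NQO1 and 3.10 ± 0.52 for AKR1B10. The 15-day effect minus the 4-day effect was 0.15 ± 0.42 for NQO1 and 0.50 ± 0.66 for AKR1B10, so each was smaller than its SE. For NQO1 it ran from -0.08 to 0.38 with 1 animal left out, so its sign turned. For AKR1B10 it became 1.24 without the treated 4-day replicate 1 and -0.23 without replicate 2. A sign of RNA quality moved in part with the day. At 4 days the ACTB signal of the 5′ over the 3′ probe set ran from 1.02 to 1.21 in treated animals. In vehicle animals of that day it ran from 0.748 to 0.988. At 15 days it ran from 0.552 to 0.839 at 400 mg/kg/day and 0.540 to 0.606 in vehicle animals. The same ratio of GAPDH overlapped between days, at 0.974 to 1.17 in treated and 0.947 to 0.993 in vehicle animals at 4 days, and at 0.964 to 1.25 in treated and 0.721 to 1.31 in vehicle animals at 15 days. The ACTB ratio also lay higher in treated than in vehicle animals at 4 days, without overlap. At 15 days it ran from 0.561 to 0.979 at 3 mg/kg/day and from 0.503 to 0.825 at 150 mg/kg/day. These groups and that at 400 mg/kg/day over 15 days overlapped the 4-day vehicle animals. The part of the ACTB ratio in the comparison of days and in the 4-day differences was not tested.

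Ordered by mean log2 level, NQO1 ran from vehicle at 15 days through vehicle at 4 days, 3 and 30 mg/kg/day to 150 mg/kg/day, 400 mg/kg/day at 15 days and 400 mg/kg/day at 4 days. Among the 4 lowest groups neighbours overlapped and differed by 0.11 to 0.23 against a residual SD of 0.35, while the outer 2 of these 4 differed by 0.55 ± 0.25. The 2 highest groups, at 400 mg/kg/day, differed by 0.06. For AKR1B10 the order was vehicle at 15 days, 30 mg/kg/day, vehicle at 4 days, 3 mg/kg/day, 150 mg/kg/day and then 400 mg/kg/day at 15 and at 4 days. Among its 4 lowest groups neighbours overlapped and differed by 0.04 to 0.52, against a residual SD of 0.55. The outer 2 of these 4, vehicle and 3 mg/kg/day at 15 days, differed by 0.75 ± 0.40 and did not overlap. The 2 groups at 400 mg/kg/day differed by 0.06. For both genes the residual SD describes the spread of single animals, not of group means.

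The spread between animals of 1 group was not used to choose the genes, and no relation between the genes was detected in it. After each group's mean was subtracted, Pearson's r between NQO1 and AKR1B10 was 0.067 over the 23 animals (permutation p = 0.769, two-sided, animals permuted within groups). Spearman's rho was 0.041 (permutation p = 0.868). This was the 1 relation tested across animals. The deviations had the same sign in 10 of 23 animals. In the 4-day groups of 2 the deviations mirror each other, so the animals of a group agree or differ together. In both of these groups they agreed, so the count is not one of separate animals. The highest NQO1 animal at 400 mg/kg/day over 15 days, replicate 1, was also the highest for AKR1B10, but the lowest, replicate 4, was second in AKR1B10. At 3 mg/kg/day replicate 4 had the highest NQO1 and the lowest AKR1B10. Without the 2 animals farthest from the median of NQO1, r was 0.035, and it turned to -0.11 without the treated 15-day replicate 1 and to -0.01 without any 1 of the 4-day animals.

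**Figure D3:**
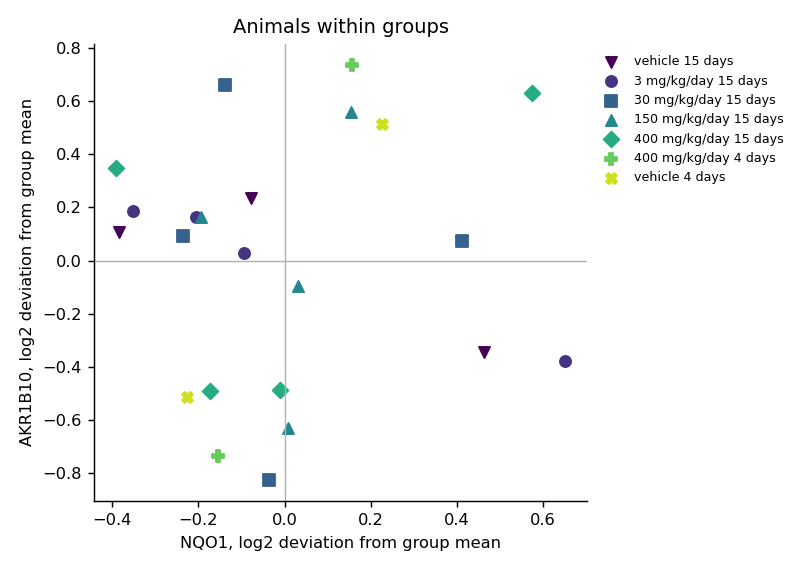
Deviation of each animal from its group's mean on the log2 scale, for NQO1 on the horizontal and AKR1B10 on the vertical axis, with a symbol for each dose and day group. Points of a group of 2 mirror each other. Pearson's r over the 23 animals was 0.067.

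Over all 23 arrays, group differences included, the 2 genes had r of 0.881. Among 5461 other genes AKR1B10 was 4th nearest to NQO1 in this measure, and NQO1 was 2nd nearest to AKR1B10. The arrays share the contrast of high doses with the rest, so this likeness is a description and has no p. TXN, the redox protein thioredoxin, was 1st for AKR1B10 (r = 0.898) and 2nd for NQO1 (r = 0.885). PSMB6, a catalytic subunit of the proteasome, was nearest to NQO1 (r = 0.889). Both lists of 6 nearest genes also held FADS2, a fatty acid desaturase, with r of 0.884 to NQO1 and 0.823 to AKR1B10.

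The other genes nearest to NQO1 were ACAA2, a mitochondrial thiolase (r = 0.845), and HTATIP2, an oxidoreductase-like protein (r = 0.835). For AKR1B10 they were PSMD2, a regulatory subunit of the proteasome (r = 0.825), FABP1, the liver fatty acid binding protein (r = 0.811), and PRDX1, a peroxiredoxin that removes peroxides (r = 0.807). The shapes were not the same. ACAA2 averaged 3864 in vehicle, 4481 at 3, 5688 at 30, 10719 at 150 and 10676 at 400 mg/kg/day, so it was level between the upper doses. HTATIP2 averaged 209.3, 214.9, 236.9, 287.8 and 448.8 over the same groups and was highest at 400. After subtraction of group means r with NQO1 was 0.490 for PSMB6, 0.475 for TXN, 0.338 for FADS2, 0.080 for HTATIP2 and -0.41 for ACAA2. Within groups AKR1B10 had r of 0.501 with FADS2, 0.393 with PRDX1, 0.223 with FABP1, 0.172 with TXN and 0.075 with PSMD2. The genes were picked by r over the same arrays, which holds the spread within groups too. These values are therefore not independent of the choice and have no p.

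The genes that ran most opposite were plasma protein genes and CYP2E1, a cytochrome P450 that oxidises ethanol. FGL1, a fibrinogen-like protein, had r of -0.87 with NQO1, the clotting factor F7 -0.85 and ITIH2, a hyaluronan-binding plasma protein, -0.84. HGFAC, which activates hepatocyte growth factor, had r of -0.84 with AKR1B10, CYP2E1 -0.83 and ITIH2 -0.82. Within groups r with NQO1 was -0.65 for FGL1, -0.57 for F7 and -0.18 for ITIH2. With AKR1B10 it was -0.35 for HGFAC, -0.20 for CYP2E1 and 0.077 for ITIH2. The most opposite genes too were picked by r over the same arrays.

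The other genes of the NRF2 pathway were compared by a test over all probe sets, limma with Benjamini-Hochberg adjustment over 7535 probe sets and a call at an adjusted p under 0.05. Of 45 listed NRF2 targets besides NQO1 and AKR1B10, 30 had a probe set that named the gene alone and 23 passed the filter. At 400 mg/kg/day over 15 days 4 of the 23 rose, 0 fell and 19 were not called, with a median log2 difference of 0.46 against -0.03 over all probe sets. Over all probe sets 1.26% rose and 0.876% fell. The list was assembled with earlier results of these data known, and it holds LTB4R, a leukotriene receptor that is not an established target (-1.43 ± 0.51, adjusted p = 0.179). In the 7 fits that each left out 1 of the 15-day vehicle or 400 mg/kg/day animals 1 to 3 rose, so none kept the count of 4. Leaving out 15-day vehicle replicate 2 or treated replicate 3 left 2 that rose, and leaving out vehicle replicate 3 or treated replicate 1 left 1.

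TXN had intensities of 2143, 1388, 1561 and 2065 at 400 mg/kg/day, against 668, 682.1 and 690.3 in vehicle animals. It rose by 1.35 ± 0.19 (adjusted p = 0.00017) and kept its call in the 7 fits that each left out 1 of these animals. The cytosolic malic enzyme ME1, which makes NADPH, had 745.1, 470.4, 604.4 and 465.3, against 263, 256.7 and 170.4. It rose by 1.25 ± 0.28 (adjusted p = 0.0154). The groups did not overlap, as in 6.72% of all probe sets tested in this direction. A second probe set that names ME1 differed by 2.18 ± 0.31. BLVRB, which reduces flavins and biliverdin, had 1976, 1535, 2676 and 1468, against 1093, 909.6 and 843.1, and rose by 0.97 ± 0.23 (adjusted p = 0.022). EPHX1, the microsomal epoxide hydrolase, had 4390, 4022, 3970 and 3936, against 2550, 2405 and 2215, and rose by 0.77 ± 0.20 (adjusted p = 0.0457). The call of ME1 ended in 2 of the 7 fits without 1 animal, that of BLVRB in 4 and that of EPHX1 in all 7.

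PRDX1 had 291, 222.2, 281.8 and 266.9 at 400 mg/kg/day, against 78.8, 85.7 and 71.6 in vehicle animals. Its difference of 1.57 ± 0.42 was not called (adjusted p = 0.0554). Its animals did not overlap, which held in this direction for 6.72% of all probe sets tested. The listed targets GCLC, GCLM, HMOX1 and TXNRD1 had no call. GCLC, the catalytic subunit of the enzyme that starts glutathione synthesis, differed by 0.30 ± 0.27 (adjusted p = 0.75) and its modifier subunit GCLM by 0.01 ± 0.38 (adjusted p = 0.998). HMOX1, heme oxygenase, differed by -1.10 ± 0.59 (adjusted p = 0.469) and the thioredoxin reductase TXNRD1 by 0.46 ± 0.23 (adjusted p = 0.416). At 150 mg/kg/day 0 of the 23 targets were called, and TXN differed by 0.48 (adjusted p = 0.316). TXN ran from 863.8 to 1063 at this dose, above all vehicle animals at 668 to 690.3, as NQO1 and AKR1B10 also did. Of all probe sets tested, 5.16% lacked overlap in this direction. NQO1 and AKR1B10 were not tested, so their lack of overlap cannot be set against the calls of the targets.

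At 4 days 2 of the 23 NRF2 targets rose and 0 fell, with a median of 0.48, while 0.252% of all probe sets rose and 0.0398% fell. TXN had 1933 and 1579 at 400 mg/kg/day, against 794 and 706.1 in vehicle animals, and rose by 1.20 ± 0.25 (adjusted p = 0.0318). BLVRB had 2048 and 1915, against 764.1 and 687.8, and rose by 1.43 ± 0.30 (adjusted p = 0.0332). Both calls ended without any 1 of the 4 animals, which leaves a group of 1. In the test of the 15-day against the 4-day effect 0 of 71 pathway genes were called by limma, and over all probe sets 0% rose and 0% fell. Of the 71, 3 had an unadjusted p under 0.05, a share that was not counted over all probe sets.

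Of the genes that regulate NRF2, 9 of 22 listed passed the filter and 0 were called at 400 mg/kg/day over 15 days (median -0.03). NFE2L2 itself had intensities of 169.3, 236.3, 250.5 and 254.7 at 400 mg/kg/day, against 308.8, 258.7 and 165.3 in vehicle animals. Its difference was -0.07 ± 0.21 (adjusted p = 0.946), a direction that flipped to 0.035 when arrays were scaled to the same median and to 0.11 without vehicle replicate 1. KEAP1 differed by 0.36 ± 0.43 (adjusted p = 0.831). The related factor NFE2L1, known for control of proteasome genes, rose at 150 mg/kg/day by 0.78 (adjusted p = 0.0295), with 870.3, 707.4, 677.8 and 819.1 there, against 386.3, 360.9 and 601.4 in vehicle animals. It was the 1 pathway gene called at 150 mg/kg/day, where 0.531% of all probe sets rose and 0.146% fell. At 400 mg/kg/day NFE2L1 stood at 0.42 (adjusted p = 0.275), and its call at 150 ended in 5 of 7 fits without 1 animal.

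Among other aldo-keto reductases 6 of 14 listed passed the filter, and 0 were called at 400 mg/kg/day over 15 days, with a median of 0.06. The nearest to a call was AKR1C4, a liver enzyme of bile acid and steroid reduction, at 1.19 ± 0.35 (adjusted p = 0.0808). AKR1C3, which reduces steroids and prostaglandins, differed by 0.55 ± 0.54, AKR1D1, the steroid 5-beta-reductase, by -0.09 ± 0.51, and the aflatoxin aldehyde reductase AKR7A3 by -0.54 ± 0.32. AKR1B10 was thus the aldo-keto reductase with the largest difference among the 7 measured above the filter, which its choice on this contrast fixes.

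Among 13 quinone and carbonyl reductases BLVRB rose and 12 were not called (median 0.26). NQO2, the relative of NQO1 that uses other co-substrates than NADPH, averaged 641.2 ± 125 (SD, n = 4) at 400 mg/kg/day and 468 ± 21.0 (SD, n = 3) in vehicle animals, a difference of 0.42 ± 0.20 (adjusted p = 0.376). CYB5R1, a cytochrome b5 reductase, differed by 1.88 ± 0.52 and was not called (adjusted p = 0.0646). Of 12 genes of NADPH supply ME1 rose and 11 were not called (median 0.14). IDH1, the cytosolic isocitrate dehydrogenase, differed by 0.78 ± 0.22 (adjusted p = 0.0629) and TKT, transketolase of the pentose phosphate pathway, by 0.83 ± 0.33 (adjusted p = 0.27).

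The AHR list, to which NQO1 also belongs by its known control, had 0 of 6 genes called at 400 mg/kg/day over 15 days (median -0.25). CYP1A1, the best known AHR target, differed by -1.71 ± 0.68 (adjusted p = 0.27), with a mean of 69.2 ± 38.9 (SD, n = 4) at 400 mg/kg/day and 245.7 ± 70.6 (SD, n = 3) in vehicle animals. Its other 2 probe sets differed by -1.02 ± 0.51 and -0.53 ± 0.30, without a call. AHR, CYP1A2 and CYP1B1 lay below the filter.

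AKR1B10 reduces retinal to retinol, and of 11 measured genes of retinoid metabolism 1 rose, 1 fell and 9 were not called (median 0.14). ALDH1A1, which oxidises retinal to retinoic acid, had 7457, 7186, 7528 and 4538 at 400 mg/kg/day, against 1280, 1791 and 2040 in vehicle animals. It rose by 1.96 ± 0.25 (adjusted p = 9.96e-05). RDH16, which oxidises retinol to retinal, had 558.9, 691.4, 436.4 and 630.1, against 1256, 1169 and 1195. Its log2 difference of -1.06 ± 0.23 passed the test (adjusted p = 0.0129) as a fall, a call that ended without 15-day vehicle replicate 1 or treated replicate 3. CYP26A1, which degrades retinoic acid, differed by -1.38 ± 0.62 (adjusted p = 0.344).

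**Figure D4:**
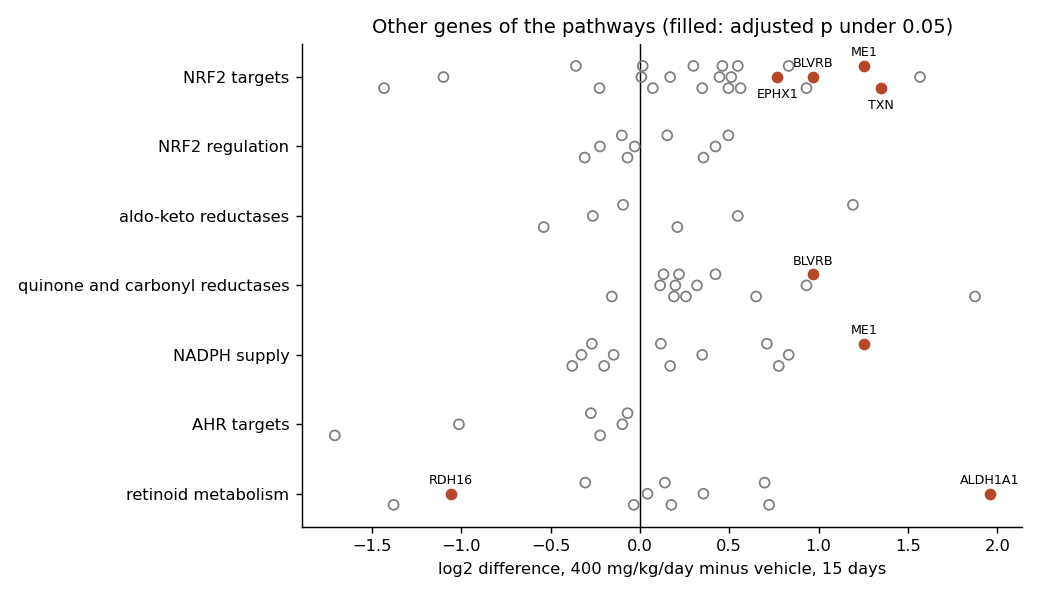
Log2 difference of 400 mg/kg/day minus vehicle at 15 days (horizontal axis) for the other genes of 7 pathway lists, 1 point a gene and list. Filled and named points have an adjusted p under 0.05. Genes in 2 lists, such as BLVRB and ME1, appear in both, and the calls are TXN, ME1, BLVRB, EPHX1 and ALDH1A1 above 0 and RDH16 below it.

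Over the 7 lists together, 71 of 147 listed genes were tested at each dose. At 400 mg/kg/day over 15 days 5 rose (7.04%) and 1 fell (1.41%), while 1.26% of all probe sets rose and 0.876% fell. At 150 mg/kg/day 1 rose and 0 fell, beside 0.531% and 0.146% of all probe sets. At 4 days 2 rose and 0 fell, beside 0.252% and 0.0398% of all probe sets. At 30 mg/kg/day 0 were called, while over all probe sets 0% rose and 0.0133% fell. At 3 mg/kg/day 0 were called, with 0% of all probe sets called in either direction. An unadjusted p under 0.05 was found for 8 of the 71 at 30 mg/kg/day and for 4 at 3 mg/kg/day. The share of all probe sets with such a p was not counted, so nothing is read from these counts. The control genes were not called at any dose or day. At 400 mg/kg/day over 15 days ACTB differed by 0.52 ± 0.21 (adjusted p = 0.27) and GAPDH by 0.00 ± 0.21. At 3, 30 and 150 mg/kg/day ACTB differed by 0.69, 0.54 and 0.42, and GAPDH by -0.36, -0.41 and -0.19, each ± 0.21. At 4 days ACTB differed by 0.33 ± 0.27 and GAPDH by -0.01 ± 0.28. At 3 mg/kg/day ACTB thus differed by more than NQO1 and by nearly as much as AKR1B10. The part of such shifts in the low-dose differences was not tested.

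The tissue showed hepatocyte RNA throughout, with all 11 hepatocyte markers above the filter, of which 1, CYP2E1, fell at 400 mg/kg/day over 15 days. Their summed intensity ran from 60652 to 71197 at 400 mg/kg/day over 15 days and from 82428 to 88282 in vehicle animals. At 4 days it ran from 55584 to 55634 at 400 mg/kg/day and from 66551 to 68001 in vehicle animals. CYP2E1 alone averaged 1479 at 400 mg/kg/day and 13669 in vehicle animals at 15 days, and 4388 at 400 mg/kg/day and 12791 in vehicle animals at 4 days. The median log2 difference of the 11 markers at 400 mg/kg/day over 15 days was 0.0043, with 6 higher and 4 lower among the 10 not called. The 8 cholangiocyte markers measured summed to 814.1 to 1055 at 400 mg/kg/day and 926.2 to 975.9 in vehicle animals, and these ranges overlapped. The defining markers KRT19, EPCAM and CFTR lay below the filter. The 8 Kupffer cell and macrophage markers summed to 2578 to 3523 at 400 mg/kg/day and 3981 to 5478 in vehicle animals. CD14 alone averaged 1851 and 3039 in these groups. Without a call, 1 of the 8 was higher and 7 were lower, CD68 by only -0.004. The 7 endothelial markers summed to 1549 to 1813 at 400 mg/kg/day and 2275 to 2498 in vehicle animals. The 7 stellate cell and fibroblast markers summed to 770.2 to 1030 at 400 mg/kg/day and 1122 to 1731 in vehicle animals, and 1 of them, TIMP1, fell. The 8 lymphocyte and neutrophil markers gave 778.3 to 985.7 at 400 mg/kg/day and 870.6 to 1077 in vehicle animals. The other markers tested were not called at this dose and day. At 4 days the macrophage markers summed to 3009 to 3412 in treated and 4092 to 5433 in vehicle animals, and the stellate cell markers to 1118 to 1290 in treated and 2014 to 2167 in vehicle animals. CD14 alone averaged 1763 in treated and 3097 in vehicle animals at 4 days, and VIM of the stellate cell list 668.1 and 1394. Without a call, 1 macrophage marker was higher and 7 were lower at 4 days, and 1 stellate cell marker was higher and 6 were lower. The lymphocyte and neutrophil markers summed there to 670.6 to 677.5 in treated and 909.3 to 966.9 in vehicle animals, without overlap. Endothelial markers summed to 1880 to 2118 in treated and 2093 to 2310 in vehicle animals, and cholangiocyte markers to 1029 to 1139 in treated and 911.5 to 1046 in vehicle animals, both with overlap. In whole tissue fewer cells of a type and less RNA per cell cannot be told apart, and the part of these shifts in the levels of NQO1, AKR1B10 and the pathway genes was not tested.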

How the data were processed

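Liver RNA of 23 animals was measured on 1-colour arrays. Per the submitters' processing notes, the deposited intensity values were computed by the authors with MAS5, with no version or settings stated. Trimmed by 2% per tail, array means agreed to within 150.065 to 150.08, and no scaling was applied here. Detection calls were not used, and the number of arrays limits the precision. Array correlations to the own group averaged 0.868 to 0.93, and no arrays were duplicates.

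Of 12625 probe sets, 67 controls were left out, and the test took in 7535, those whose log2(value + 16) averaged at least the 40th percentile. A means model for 7 groups was fitted with limma 3.58.1 in R 4.3.3 with an intensity trend, two-sided, and called at an adjusted p under 0.05 (Benjamini-Hochberg). A gene was represented by its tested probe set of highest mean that named it alone. Correlations used 100000 permutations in Python. The fit was tested on simulated data.

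The members and gene lists were chosen with earlier results of these data known. Besides both members, the genes named were the 6 nearest and 3 most opposite to each by Pearson's r over the arrays, the called genes of each list, NFE2L2, KEAP1, AHR, AKR1B1, NQO2, GCLC, GCLM, HMOX1, TXNRD1 and 2 control genes. PRDX1, AKR1C3, AKR1C4, AKR1D1, AKR7A3, CYB5R1, IDH1, TKT, CYP1A1, CYP26A1 and LTB4R were added after their values were seen. Animals of a group have separate labels. Alternatives covered the pseudocount, filter, scaling, variance model, array weights, a replicate block, separate fits and leaving out each animal. Same-numbered animals did not deviate together, so the numbers were not taken as pairs.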

Additional observations from a re-analysis of the deposited data

Results flagged for a closer look

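Among NQO1, AKR1B10 and 9 pathway genes in the 4 groups of 4 animals, 2 of 44 groups held 1 animal far from the other 3, where chance gives about 1 in 20. ALDH1A1 at 400 mg/kg/day over 15 days had its lowest animal, replicate 4, at 4538, while the others lay between 7186 and 7528. NFE2L1 at 30 mg/kg/day had its lowest animal, replicate 3, at 554.4, while the others lay between 639.2 and 647.9. The rule set the gap to the nearest animal against the range of the group, and it flagged neither NQO1 nor AKR1B10. That does not mean that no single animal weighed on them. NQO1 at 3 mg/kg/day had its highest animal, replicate 4, at 425.8, while the others lay between 204.6 and 247.4. Without this animal the log2 difference of NQO1 from vehicle at 3 mg/kg/day fell from 0.32 to 0.11.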

How the results depend on the processing

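The 5 differences of NQO1 from vehicle moved by less than its residual SD, but the small ones moved most for their size: 0.11 to 0.56 at 3 mg/kg/day and 0.36 to 0.78 at 30 mg/kg/day with an animal left out. AKR1B10 moved with a pseudocount of 64, to 2.73 at 400 mg/kg/day and 1.27 at 150 mg/kg/day over 15 days and to 2.46 at 4 days, as a larger pseudocount shrinks differences of low values by construction. At 3 mg/kg/day it was 0.43 with a pseudocount of 64 and 1.00 with 1, and at 400 mg/kg/day over 15 days it was 4.11 with 1. With each animal left out, its 4-day difference ran from 2.36 to 3.84, its difference between days from -0.23 to 1.24 and its difference at 30 mg/kg/day from -0.18 to 0.32. The difference between days of NQO1 ran from -0.08 to 0.38. The 5 pathway genes that rose at 400 mg/kg/day over 15 days became 3 without the trend and 11 with array weights, and 2 to 6 with an animal left out, and the 1 that fell became 0 or 1. The 1 that rose at 150 mg/kg/day became 0 without the filter and without the trend, 2 with array weights and 0 to 1 with an animal left out, when 0 to 1 fell. The 2 that rose at 4 days became 0 without the filter, without the trend, with quantile scaling, in a fit of the 4-day arrays alone and without each animal. With the replicate block 1 rose at 4 days and 1 at 30 mg/kg/day, and BLVRB at 400 mg/kg/day had an adjusted p of 0.0509. Same-numbered animals correlated between -0.09 and 0.03 in their deviations, so the block had no pairs to follow. The correlation within groups was -0.11 in the 15-day arrays alone (permutation p = 0.687) and -0.11 to 0.21 with an animal left out. The cause of these changes was not tested. The log2 difference of NFE2L2 at 400 mg/kg/day over 15 days turned to 0.035 with median scaling and ran from -0.31 to 0.11 with an animal left out. PRDX1 was called in 5 of 11 alternatives. No other probe set named either gene, so that alternative was not run. Intensities near the filter limit the AKR1B10 differences, and groups of 2 limit the 4-day calls.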
